A study of Sus scrofa with 2 samples.

Results

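The cytoplasmic ribosomal protein genes were taken as a family from single-cell RNA sequencing of the somatic cells of 2 pig antral follicles. A gene was a member when its symbol in the deposited gene list was RPL or RPS followed by a digit, or was RPLP0, RPLP1, RPLP2 or RPSA, and the 10 genes with symbols of the ribosomal protein S6 kinases were left out. This gave 53 of the 22342 genes of the list. Of these, 45 belong to the standard set of 79 ribosomal proteins, 24 in the small and 21 in the large subunit. The other 8 members were RPS27L, RPL26L1, RPL7L1, RPL36AL, RPL3L and RPL10L, which are relatives of standard ribosomal protein genes, the read-through gene RPL17-C18orf32, and RPS19BP1, which encodes a protein that binds RPS19 and is not itself part of the ribosome. A further 13 standard genes, among them RPLP1, RPS3 and RPL7A, stand in the list by identifier alone and could be named only from a reference table, so they are not members and are given apart. For 21 standard genes no name was found.

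A cytoplasmic ribosome holds a single copy of most of its proteins, and cells make these proteins in matched amounts from many genes spread over the genome. Their mRNAs are among the most abundant in a dividing or secreting cell and are known for a 5′ terminal oligopyrimidine tract, or TOP, a C at the cap followed by a run of pyrimidines, through which mTOR signalling and the RNA-binding protein LARP1 govern their translation. Granulosa cells of a large antral follicle make steroids, inhibin and, around the oocyte, the matrix of the expanding cumulus, all of which draw on protein synthesis.

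Both follicles came from the ovaries of 1 pubertal Landrace and Yorkshire cross pig, 210 days old. The methods of the study state that the animal had been given pregnant mare serum gonadotropin. The cells of each follicle made 1 library, here called AF75 for the first and AF76 for the second follicle, a link that rests on the submitters' names of the data. The follicles were healthy and over 7 mm wide, and the cells were flushed out of them and joined by cumulus cells freed with hyaluronidase. There was no treated or control group, both follicles shared the animal and its hormone injection, and no test was made, between follicles because each gave 1 library, or between clusters because they were drawn from the same genes and cells.

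Barcodes with 2000 to 5000 detected genes and under 7% mitochondrial unique molecular identifiers (UMIs, each standing for 1 captured mRNA) were used, 9362 of 14289 in AF75 and 7843 of 15548 in AF76. The median depth was 11254.5 UMIs per cell in AF75 and 13902 in AF76, and 18 of the barcodes used occurred in both follicles. The cells were grouped by graph clustering on 2000 variable genes, and 0 of these were ribosomal protein genes. Cluster 0 was led by TGFB3, ENPP2 and IL33, cluster 1 by ARPP21, ALPK2 and SHAS2, cluster 3 by the cell-cycle genes TOP2A, CDCA8 and DIAPH3, cluster 4 by SPP1, CTSS and ALDH1A2, and cluster 5, with 20 and 24 cells, by the interferon-induced genes CXCL10, RSAD2 and IFIT2. Cluster 2 was found in AF76 alone, with 672 cells, and was led by DEFB1, CCL26, CEMIP and CCDC80. Against the granulosa label, INHA, the inhibin alpha subunit, stood at 12006 to 24537 CPM (counts of the gene scaled to a common total of UMIs) in the other groups and at 2235 CPM in cluster 2, while CYP11A1, the first enzyme of steroid synthesis, stood at 1400 to 2337 CPM in every group. The 4 mural granulosa markers AREG, CYB5A, IL33 and TGFB3 were lower as well, summing to 765 CPM in cluster 2 and 9785 CPM in cluster 0 of AF76. Other genes of the granulosa list itself were not lower in cluster 2. FSHR, the receptor of follicle-stimulating hormone, was at 38.2 CPM there and at 0.364 CPM in cluster 0 of AF76, and CYP19A1, the enzyme that makes oestrogen, was at 35.9 and 35.8 CPM. AMH, a product of granulosa cells of small follicles, had 1 UMI in cluster 2 and 0 elsewhere. The oocyte genes ZP2, ZP3, BMP15 and DAZL had 0 UMIs in every group, while GDF9, an oocyte growth factor, had 3.10 to 8.82 CPM. Some leading genes of clusters 1 and 4 differed widely between the follicles. In cluster 4, CTSS had 10.3 CPM for AF75, as in cluster 0 there, and 260 CPM for AF76. SPP1 had 12.4 and 291 CPM, while ALDH1A2 was higher in AF75, with 91.4 and 26.6 CPM. In cluster 1, ARPP21 had 169 CPM for AF75 and 2.13 CPM for AF76, and SHAS2 had 256 and 13.2 CPM.

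The annotated starts of the genes were read for the TOP feature. The next lines give 30 bases around the RefSeq transcript start of 12 members, 15 before the start and 15 from it on, on the strand of the gene in Sscrofa11.1, with the longest run of pyrimidines led by a C in capitals. RPL10, RPS20, RPL6, RPLP2, RPL23, RPS26 and RPLP0 are shown because the tract covers the start. RPS12, RPS2, RPSA, RPS27L and RPL4 are among the 8 members whose levels departed from those of the family in cluster 2. RPLP0 departed too, as did RPS19BP1 and RPL26L1, which are not shown. RPLP0, RPL4, RPS19BP1 and RPL26L1 had a C followed by at least 4 pyrimidines within 5 bases of the start. The lines are thus not a comparison of departing members with others.
RPL10, chrX:124927234-124927263, plus strand: caggcgtgggagcgCCTCTTTTCCTTCggc
RPS20, chr4:75762194-75762223, plus strand: aggcctcacgCCTTCCTCTTTgaagaagac
RPL6, chr14:39302432-39302461, plus strand: gctgaggccttagttCTCTTTCCCatcttg
RPLP2, chr2:507876-507905, plus strand: cccccgcgccggcgtCTTCCTTTCTgtccc
RPL23, chr12:23279950-23279979, plus strand: ctttgttcttaCTTCCTTTTCgtccttgtc
RPS26, chr5:21431641-21431670, plus strand: gccgttggccaCTTCCTCTCTCgcgtcttc
RPLP0, chr14:40223929-40223958, minus strand: cggcgtacagCCCTCCTCTCgccaggcgtc
RPS12, chr1:30923378-30923407, minus strand: attCTCTTTCCCTgccgccgccgagtcgcg
RPS2, chr3:39996164-39996193, plus strand: ttgtcgggaagcggaaggagCCagaggcgt
RPSA, chr13:24072536-24072565, plus strand: ccgcgctgCCCagaccggggtccacacggc
RPS27L, chr1:108881315-108881344, plus strand: ggCTCCCTacccgccatacaccagttgagc
RPL4, chr1:164481751-164481780, minus strand: tcgcgagaattggccacgCCCCCTTgtgga

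A C followed by at least 4 pyrimidines, read on the strand of the gene, stood at the annotated start of 13 of the 52 members with a RefSeq start, which is 25%, against 598 of 19507 protein-coding genes, or 3.07%. Within 5 bases of the start it was found for 24 members (46.2%) and for 18.2% of all genes. The tract of RPS12 lies 12 bases upstream of the annotated start and so was not counted. An annotated start can lie some bases from the one a cell uses, and a match is a feature of the letters only.

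In each cluster the ribosomal protein genes took a narrow share of all UMIs, apart from cluster 2. In AF75 the 53 genes held 7.44% of UMIs in cluster 0, with a 95% Clopper-Pearson interval of 7.44% to 7.45%. Cluster 1 had 7.14% and cluster 4 had 7.10%, while clusters 3 and 5 had 7.52% and 7.29%. In AF76 cluster 0 had 7.98%, cluster 1 had 7.47% and cluster 4 had 7.58%, while clusters 3 and 5 had 7.83% and 7.90%. Cluster 2 reached 11.09%. Cluster 2 thus stood 3.12 percentage points above cluster 0 of the same library, while the other clusters of either follicle lay within 0.512 points of their cluster 0. The lower share of cluster 1 turned with the grouping, to 0.583 points above cluster 0 in AF76 when the follicles were clustered without integration and to 0.0233 points above it in AF75 when barcodes of 500 to 6000 genes were used. With 500 to 6000 genes cluster 4 was not recovered, since the group matched to it held 8 of its 340 cells among 1059 barcodes, and that group had 10.99% in AF75 and 14.05% in AF76. All intervals here are at 95% and cover counting error only, and no replicate follicle gives the spread between animals.

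**Figure D1:**
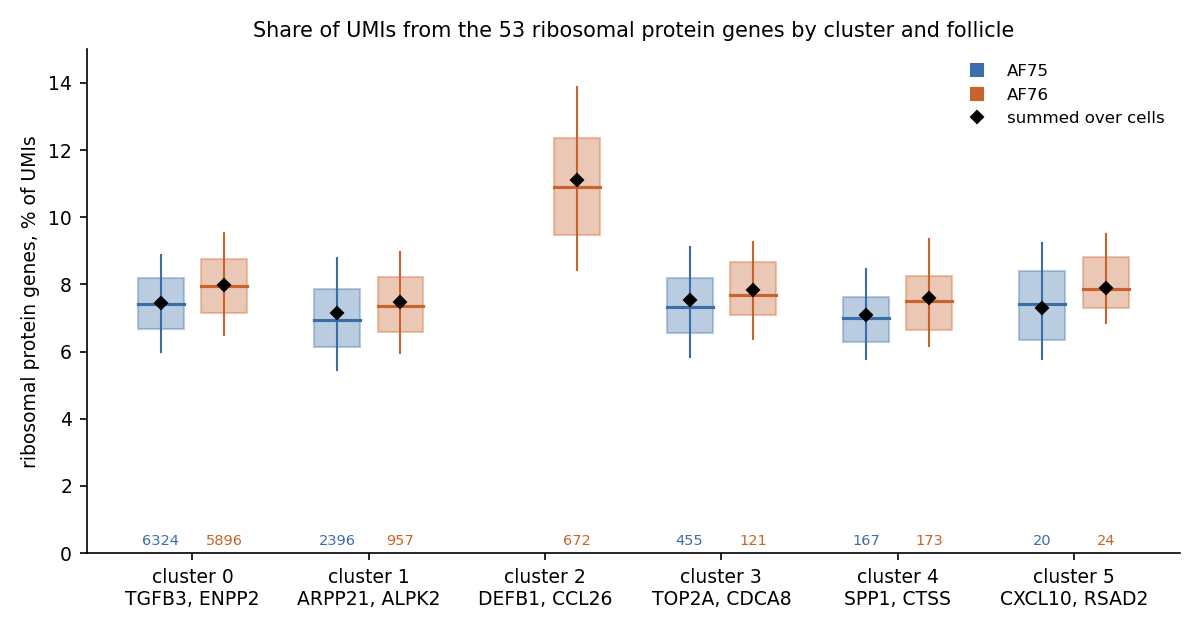
Share of each cell's UMIs from the 53 ribosomal protein genes, in percent, by cluster for AF75 (blue) and AF76 (orange). Boxes span the quartiles over cells, the line is the median, whiskers reach the 10th and 90th percentiles, diamonds are the share of UMIs summed over cells, and the numbers along the foot are cells. Cluster 2 occurs in AF76 alone and its lower quartile, 9.48%, lies above the upper quartiles of the other groups.

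Apart from cluster 2, cells of one cluster differed more than clusters did. Over the cells of cluster 0 the quartiles lay at 6.68% and 8.18% for AF75 and at 7.16% and 8.75% for AF76. In cluster 2 the median cell had 10.9%, and the 10th and 90th percentiles were 8.44% and 13.9%. The 10th percentile of cluster 2 was thus above the median of each other cluster in AF76, and below the 90th percentiles of 8.96% to 9.53% there. Over all cells the share ran from 3.06% to 13.2% in AF75 and from 2.94% to 20.2% in AF76.

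Both subunits shared in the higher level of cluster 2. The 24 small-subunit genes held 4.23% of UMIs in cluster 0 of AF76 and 5.85% in cluster 2, and the 21 large-subunit genes held 3.48% and 4.92%. The balance of the subunits was nearly level over all groups, with small-subunit genes at 52.7% to 54.8% of the family's UMIs and large-subunit genes at 42.2% to 44.3%. The 13 genes named from the reference table alone, counted apart, went from 2.47% to 3.24% of UMIs between the same clusters.

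The cells of cluster 2 were shallow, with a median of 6422 UMIs against 14248 in cluster 0 of AF76. At 5000 to 7000 UMIs per cell the family held 11.12% of UMIs in 327 cells of cluster 2 and 7.83% in 158 cells of cluster 0. At 7000 to 9000 UMIs the shares were 11.12% in 159 cells and 7.96% in 344 cells. At 9000 to 12000 UMIs they were 11.5% in 65 cells and 7.99% in 1088 cells. In these ranges the gap between the clusters was as wide as over all cells. At 15000 to 20000 UMIs it was narrower, with 10.6% in 12 cells of cluster 2 and 7.96% in 1961 cells of cluster 0. The 2 cells of cluster 2 with 20000 or more UMIs had 9.26%. Cluster 0 of AF76 stayed between 7.83% and 7.997% in every range of depth from 5000 UMIs upward. In cluster 0 of AF75 the share moved with depth, from 6.88% at 5000 to 7000 UMIs to 7.505% at 9000 to 12000 UMIs.

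**Figure D2:**
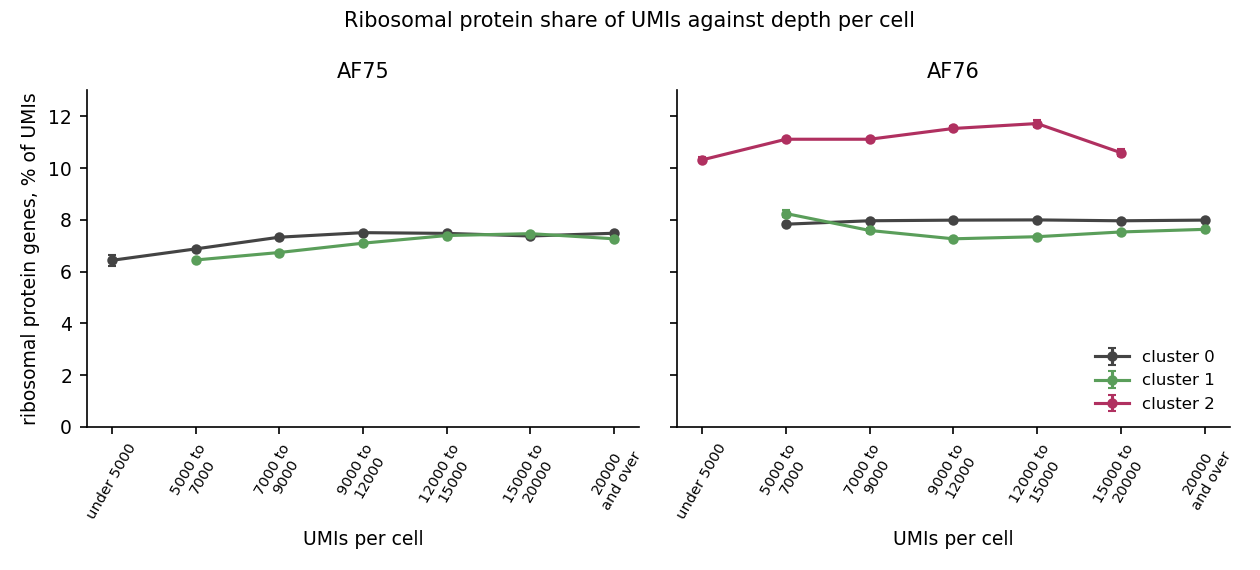
Share of UMIs from the ribosomal protein genes, in percent, against UMIs per cell in ranges, for clusters 0, 1 and 2 of each follicle, where a range holds at least 10 cells. Points are summed over cells and bars are 95% Clopper-Pearson intervals. Cluster 2 lies between 10.3% and 11.7% at each depth, above cluster 0 of AF76 throughout.

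A share depends on what else a cell expresses. The 20 most abundant genes outside the family held 16.5% of UMIs in cluster 0 of AF76 and 9.85% in cluster 2, and the part of this in the higher share was not tested. The 6 theca or stromal markers had a summed level of 105 CPM in cluster 2, of which ACTA2 alone gave 61.8 CPM. In clusters 0, 1, 3 and 4 of both follicles the sum was 0.817 to 5.83 CPM. DCN was at 18.5 CPM in cluster 2 and 0.564 CPM in cluster 0 of AF76, and LUM at 13.4 and 0.129 CPM. COL1A1 was at 9.24 and 1.13 CPM and COL3A1 at 1.47 and 0.681 CPM. CYP17A1, the defining enzyme of theca cells, was lower in cluster 2, at 0.42 and 1.90 CPM. Of the endothelial markers, VWF was higher in cluster 2, at 22.7 and 0.470 CPM. PECAM1 and KDR were lower, at 2.73 and 6.56 CPM and at 0.630 and 4.18 CPM, and CDH5 had 0 UMIs. The immune markers summed to 29.8 CPM in cluster 2, as low as in cluster 0, at 32.3 CPM.

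At a finer resolution of 0.8, cluster 2 held 641 cells led by CEMIP, DEFB1 and CRABP2, with 10.8% of UMIs from the family, and 31 cells led by WNT6, KRT8 and CCL26, with 14.7%. The 31 cells were not shallow, at a median of 10817 UMIs, and had the highest share of any group. Most finer groups of cluster 0 ran from 7.17% in AF75 and 7.66% in AF76, in cells led by the cholesterol synthesis genes INSIG1, SCD and SQLE, to 7.76% and 8.24% in cells led by NPTX1, TGFB3 and MNDA. The highest in cluster 0 was a group of 131 and 264 cells led by TECR, which had 8.57% and 9.02%, at a median mitochondrial share of 0.689% and 0.806%, against 2.88% and 3.04% in cluster 0 as a whole. In cluster 1 the finer group led by TMEM178A, NAV2 and ARPP21 had 6.97% in AF75 and 7.16% in AF76. The order of these 4 groups was the same in both follicles. Cells of cluster 1 led by RBP4 and PTGS2, the prostaglandin synthase of ovulation, had 7.87% in the 407 cells of AF75 and 10.0% in the 12 cells of AF76, which had a median of 7097 UMIs.

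The family's UMIs were spread over many genes. RPS12 and RPL10 were the most abundant members in both follicles. RPS12, a small-subunit protein, stood at 3534 CPM in AF75, compared with 4138 CPM in AF76, and was seen in 100% of cells. RPL10, which joins the large subunit late in its assembly, stood at 3268 and 3713 CPM, and RPS20 at 2634 and 2973 CPM. The next 2 were RPS29 at 2439 CPM and RPS19 at 2421 CPM in AF75, and RPL37 at 2533 CPM and RPS29 at 2475 CPM in AF76. The 5 most abundant members held 19.4% of the family's UMIs in AF75 and 19.7% in AF76. UMIs count captured 3′ ends, so these levels were not divided by gene length. Reads that also match a processed pseudogene or a close relative can be dropped or split in the counting, and levels of single members are uncertain to that extent.

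No standard member was rare: the lowest, RPL4, stood at 612 CPM in AF75, compared with 651 CPM in AF76. The members outside the standard set ranged from 0 UMIs to the level of a standard member. RPL17-C18orf32, the read-through of the gene of a large-subunit protein and its neighbour, was at the level of a standard member, 964 CPM and 1241 CPM, and RPL36AL, a close relative of RPL36A, was at 618 and 640 CPM. RPL7L1, RPL26L1, RPS27L and RPS19BP1 were between 150 and 198 CPM in both follicles. RPL3L, the form of RPL3 found in heart and skeletal muscle, had 18 UMIs in AF75 and 19 in AF76, and RPL10L, the form of RPL10 found in testis, had 0 in both, under the 0.027 and 0.0275 CPM that 3 UMIs would give. These 2 genes did not reach the 200 UMIs in either group that a comparison asked for, so 51 members were compared.

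The 51 members were each compared between cluster 2 and cluster 0 of AF76 as ratios of CPM, and a member was counted as past the fold when the higher CPM was over 25% above the lower. Of them 37 were higher in cluster 2 and 2 were lower. Over all 9420 genes compared, 51.5% were higher and 21.5% lower, so that cluster 2 differed from cluster 0 in most genes, and 72.5% of members higher is to be read against that figure. The median log2 ratio was 0.46 over the members and 0.35 over all genes. In cells with 5000 to 9000 UMIs the members again gave 37 and 2 with a median of 0.45, while 3447 genes reached the minimum of UMIs, with 43.6% higher, 30.1% lower and a median of 0.16. Over the same 3447 genes the median in all cells was 0.16 too, so the figure for all genes depends on which genes are counted well enough. By subunit, 19 of 24 small-subunit and 16 of 21 large-subunit members were higher and none was lower, with medians of 0.47 and 0.49. In AF76, 46 of the 51 members had their highest level of clusters 0 to 4 in cluster 2, as did 54.6% of all genes.

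RPS2 stood furthest above the family in cluster 2. RPS2, a small-subunit protein near the mRNA entry of the ribosome, was at 1154 CPM in cluster 0 and 2790 CPM in cluster 2 of AF76, a log2 ratio of 1.27, which is 0.81 above the member median. In the other clusters of both follicles it kept to 1069 to 1316 CPM. RPSA, the small-subunit protein that also serves as a laminin receptor, was at 781 CPM in cluster 0 and 1577 CPM in cluster 2, and RPLP0, the base of the large subunit's stalk, at 1402 and 2791 CPM. These were 0.55 and 0.53 above the member median. RPS27L, the relative of RPS27, was at 185 and 369 CPM, 0.53 above the median. Neither RPSA nor RPLP0 departed from the family in the other clusters, where RPSA was at 739 to 837 CPM and RPLP0 at 1206 to 1475 CPM in clusters 0, 1, 3 and 4.

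RPS12 went the other way. The most abundant member of the family was at 4294 CPM in cluster 0 of AF76 and at 3693 CPM in cluster 2, a log2 ratio of -0.22 and 0.68 below the member median. RPL4 was at 678 and 637 CPM, 0.55 below the median. RPS19BP1 was at 155 and 103 CPM and RPL26L1 at 200 and 153 CPM, and these were the 2 members past the fold on the low side. RPL7L1, whose yeast relative acts in ribosome assembly, was nearly equal, at 179 CPM in both clusters. With barcodes of 500 to 6000 genes RPS2, RPS12, RPS19BP1 and RPL26L1 still departed, while RPS27L, RPSA, RPLP0 and RPL4 fell short of the limit, with 0.4993, 0.485, 0.493 and -0.42. In cells with 5000 to 9000 UMIs RPSA fell short as well, with 0.464. Of the 8 departing members, RPS2, RPSA, RPLP0, RPS12 and RPL4 belong to the standard set. The share of all genes that lay as far from their own median is not given. The count thus does not show whether members were more or less spread than other genes.

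With a limit of 0.3 in place of 0.5, RPL34 with 0.46 and RPS7 with 0.32 joined the members above the family in cluster 2, and RPL7L1, RPL36AL and RPL27 joined those below it. The 13 genes named from the reference table had a median log2 ratio of 0.44, against 0.35 over all genes. Of these, 9 were higher past the fold and none lower, against 51.5% and 21.5% of all genes. Without the 31 cells of the finer group in cluster 2 the counts were 8 and 1, against 51.5% and 21.6%. Among the 13 genes RPS24 departed, with a log2 ratio of -0.31, at 2308 CPM in cluster 0 and 1859 CPM in cluster 2. It and RPLP1, at 2637 and 4237 CPM, are given because they lie at the ends of that list and were chosen after their values were seen.

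**Figure D3:**
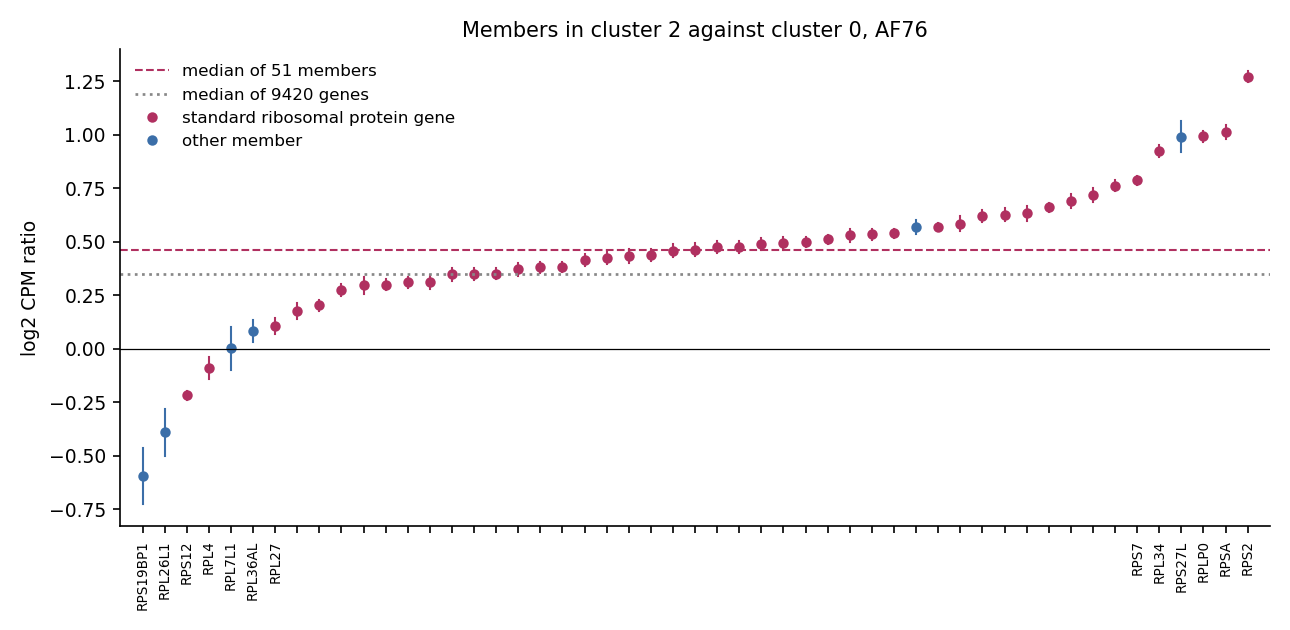
Log2 ratio of CPM in cluster 2 to that in cluster 0 of AF76 for the 51 members compared, in order of size, with names for those 0.3 or more from the member median and exact 95% intervals for counting error. Red points are standard ribosomal protein genes, blue points the other members, the dashed line is the member median of 0.46 and the dotted line the median of all 9420 genes, 0.35.

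No member departed by 0.5 from the family in any other comparison. In cluster 1 against cluster 0, none was higher and 1 lower past the fold in AF75, where 13.4% of all genes were higher and 26.4% lower. That gene was RPS4X, the X-linked small-subunit gene, at 1396 CPM in cluster 0 and 1036 CPM in cluster 1. In AF76 none was higher and 1, RPL4, was lower, at 678 and 527 CPM, against 8.88% and 9.03% of all genes. The members lay close to equal, with medians of -0.06 and -0.08 on the log2 scale, with 36 of 51 in AF75 and 45 of 51 in AF76 below 0, against 61.1% and 51.6% of all genes, whose medians were -0.09 and -0.01. RPS19 stood highest in AF75, at 2271 CPM in cluster 0 and 2780 CPM in cluster 1, while in AF76 it was at 2311 and 2343 CPM.

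The share of the cell-cycle cluster 3 lay within 0.143 points of that of cluster 0, and its sign in AF75 depended on the way of averaging, with 0.0792 points from summed UMIs and -0.00282 points from the mean over cells. Even so its members were not all level. Past the fold, 1 member was higher and 1 lower in AF75, where 18.3% of all genes were higher and 22.7% lower, and 1 was higher and 2 lower in AF76, where these were 19.7% and 20.3%. RPS16 was the higher member in both follicles, at 1232 CPM in cluster 0 and 1638 CPM in cluster 3 of AF75, and at 1290 and 1615 CPM in AF76. At the limit of 0.3, RPS16 stood above the family in both follicles by 0.32 or more, and RPS12, RPL36AL and RPS4X stood below it by 0.30 or more. The lower member in AF75 was RPS4X, at 1396 and 1110 CPM. In AF76 they were RPS12, at 4294 and 3311 CPM, and RPL36AL, at 647 and 510 CPM.

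Cluster 4 gave much the same view. None of the members was higher and 2 were lower past the fold in each follicle, against 16.9% higher and 17% lower of all genes in AF75 and 16.9% each way in AF76. RPS12 and RPL4 were the 2 in both. In cluster 4 RPS12 had 2937 CPM for AF75 and 3192 CPM for AF76, and RPL4 at 511 and 493 CPM, against 646 and 678 CPM in cluster 0. Immune markers differed between the follicles in this cluster: the 8 of them summed to 31.0 CPM in AF75, compared with 510 CPM in AF76, with PTPRC, which marks all white blood cells, at 0 and 9.97 CPM. Their part in the members' values was not tested. RPS12 thus had its highest level of clusters 0 to 4 in cluster 0 in both follicles, and it stood below the member median in clusters 1, 3 and 4 of both and in cluster 2 of AF76.

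**Figure D4:**
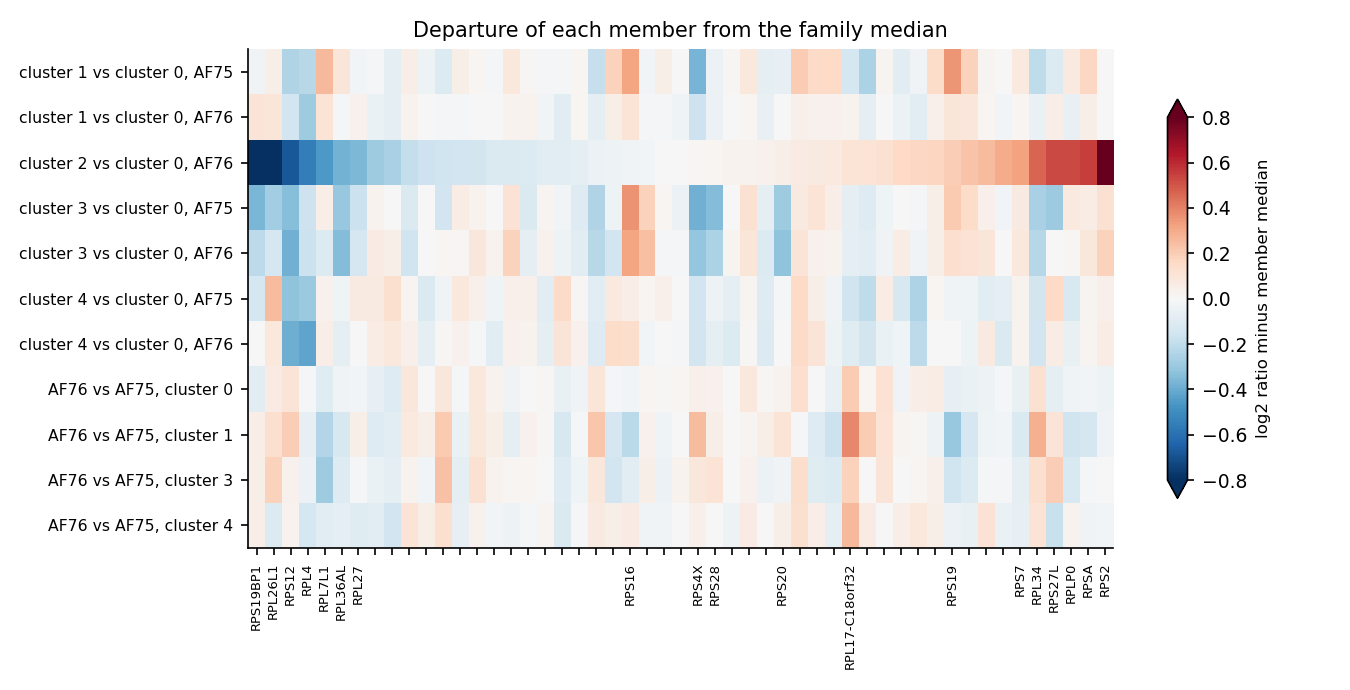
Log2 CPM ratio of each of the 51 members minus the median of the members, in the 11 comparisons of clusters and follicles, with members in the order of their ratio in cluster 2 and names for those 0.3 or more from the median in any comparison. Red is above and blue below the family. The row of cluster 2 holds the departures of 0.5 or more, from -1.06 for RPS19BP1 to 0.81 for RPS2, and RPS12 is below the family in the rows of clusters 1, 3 and 4 as well.

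The family held a larger share in AF76 than in AF75 in each cluster that both follicles had. Cluster 0 differed by 0.536 percentage points, cluster 1 by 0.328, cluster 3 by 0.313 and cluster 4 by 0.485. The cells of cluster 1 differed in makeup between the follicles, as given below. With barcodes of 500 to 6000 genes the sign turned in cluster 1, to -0.637 points, where the matched group held 27.4% of its cells. In cluster 0 the log2 ratio of AF76 over AF75 had a median of 0.09 for the members and of -0.04 for all genes, and 49 of 51 members were above 0, against 38.5% of all genes. No member passed the fold there, where 1.86% of all genes were higher and 6.87% lower. With 1 library for each follicle, the follicle and its library cannot be told apart, and AF76 was also the deeper library per cell.

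RPL17-C18orf32 differed most between the follicles in clusters 0, 1 and 4, and RPL37 in cluster 3, at 2081 CPM in AF75 compared with 2564 CPM in AF76. In cluster 0 RPL17-C18orf32 had 999 CPM for AF75 and 1224 CPM for AF76, and the pairs were 869 and 1182 CPM for cluster 1, 980 and 1166 CPM for cluster 3, and 870 and 1111 CPM for cluster 4. Its ratio stood 0.21, 0.39, 0.18 and 0.26 above the member median in these clusters on the log2 scale. In cluster 1 RPL17-C18orf32 and RPL34 were the 2 members higher past the fold, against 16.8% higher and 15.4% lower of all genes, with RPL34 at 914 and 1158 CPM. In cluster 4 it alone was higher, against 3.99% and 5.12%, and in cluster 3 no member passed, against 11.4% and 15.3%. In cluster 1, HBB, a red blood cell gene, stood at 1.80 CPM in AF75, compared with 156 CPM in AF76. The makeup of this cluster differed as well. VCAN had 5714 CPM for AF75 and 1098 CPM for AF76, TNFAIP6 had 2659 and 364 CPM, and AREG had 1058 and 4308 CPM. The finer group led by TMEM178A, NAV2 and ARPP21 held 1121 cells of AF75 and 104 of AF76. Comparisons of the follicles in cluster 1 were thus not of like cells, and the part of these differences in the values was not tested. RPS19BP1 had the most even level in cluster 0, with 154 CPM for AF75 and 155 CPM for AF76.

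Across single cells, the members that moved least with the family were mostly those outside the standard set. Each cell of cluster 0 was thinned to 5000 UMIs, which left 6313 cells of AF75 and 5889 of AF76, and each member was set against the sum of the others. Pearson's r was 0.02 to 0.07 for RPL7L1, RPS19BP1, RPL26L1 and RPS27L, which had fewer than 1 UMI per thinned cell. RPL4 followed them in AF76, with an r of 0.12 at 3.40 UMIs per cell. RPL10 had the highest value, 0.51 in AF75 and 0.49 in AF76, at 17.2 and 18.6 UMIs per cell. RPS12 had more UMIs, 18.7 and 21.3 per cell, and a lower r of 0.38 and 0.33. The cells of one cluster share a library, and a member's r is bounded by its counts, so these values describe these libraries only.

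Other genes of the translation apparatus were followed in 4 lists. Of 19 genes of translation factors and other TOP mRNAs, 15 were listed by symbol and compared, and 13 were higher in cluster 2 than in cluster 0 of AF76 and none lower, where 51.5% of all genes were higher and 21.5% lower. The median log2 ratio was 0.70, against 0.46 for the ribosomal protein genes. PABPC1, the poly(A)-binding protein, was at 209 CPM in cluster 0 and 704 CPM in cluster 2. EIF4B, which helps the helicase of initiation, was at 151 and 395 CPM, and EIF3E, a subunit of initiation factor 3, at 110 and 245 CPM. EEF1A1, the factor that brings tRNA to the ribosome, was at 3492 and 6464 CPM. RACK1, a protein bound to the small subunit, and TPT1, a TOP mRNA, had the smallest ratios, with 1257 and 1452 CPM and 6953 and 8612 CPM, followed by EEF2, the translocation factor, at 833 and 1091 CPM.

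Of 20 ribosome biogenesis genes, 19 were compared, with 11 higher, 1 lower and a median of 0.53, so that the share of higher genes was close to the 51.5% over all genes. WDR12, of the complex that processes large-subunit rRNA, was at 16.8 CPM in cluster 0 and 46.6 CPM in cluster 2, UBTF, the factor that binds rRNA genes, at 41.3 and 91.0 CPM, and POLR1B, a subunit of RNA polymerase I, at 12.3 and 25.4 CPM. POLR1A, the largest subunit of the same enzyme, was the lower one, with only 16 UMIs in cluster 2, at 6.36 and 3.36 CPM. BYSL and GAR1 were next, at 35.5 and 33.8 CPM and at 6.53 and 6.303 CPM.

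The mitochondrial ribosomal protein genes did not share this pattern. Of 69 compared, 8 were higher and 16 lower in cluster 2, with a median of -0.07, against 51.5% higher and 21.5% lower over all genes. MRPL3 was at 80.3 and 185 CPM, MRPL12 at 50.8 and 80.9 CPM and MRPL38 at 58.7 and 92.0 CPM. MRPL40 was at 243 and 104 CPM, MRPS27 at 10.4 and 5.04 CPM and MRPS35 at 55.3 and 27.3 CPM. The medians of the cytoplasmic and the mitochondrial ribosomal protein genes thus stood on either side of the all-gene median in these cells.

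Of 13 regulators of ribosomal protein synthesis, 11 were compared, with 7 higher, 1 lower and a median of 0.56, again beside 51.5% higher over all genes. EIF4EBP1, which blocks the cap-binding factor EIF4E until mTOR releases it, had the lowest ratio, at 919 CPM in cluster 0 and 182 CPM in cluster 2. EIF4E itself was at 97.1 and 78.995 CPM, and RPS6KB2 at 20.7 and 21.4 CPM. RPS6KB1, the kinase that phosphorylates RPS6, was at 23.6 and 43.7 CPM and RHEB, the activator of mTOR complex 1, at 151 and 259 CPM. MTOR was at 25.7 and 28.8 CPM and LARP1 at 30.5 and 50.4 CPM.

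**Figure D5:**
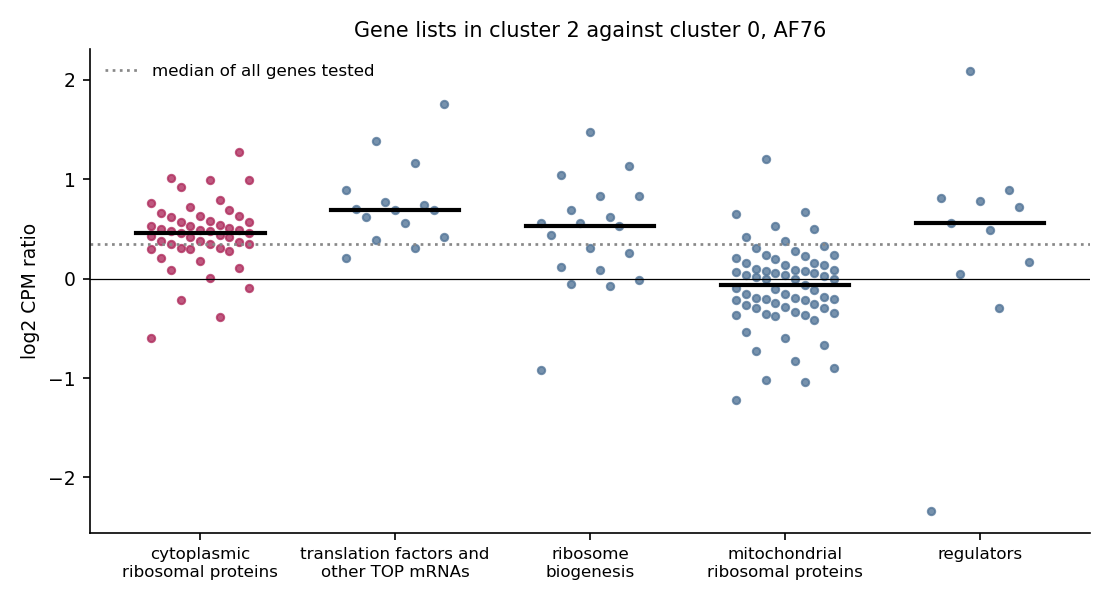
Log2 ratio of CPM in cluster 2 to that in cluster 0 of AF76 for the 51 ribosomal protein genes (red) and for 4 lists of other genes (blue). Each point is a gene, black bars are the medians of 0.46, 0.70, 0.53, -0.07 and 0.56 from left to right, and the dotted line is the median of all genes compared, 0.35.

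In the other comparisons the lists other than ribosome biogenesis had medians near 0. For the translation factors the median log2 ratio lay between -0.11 and 0.09 in all 10 of them. For the mitochondrial ribosomal proteins it lay between -0.04 and 0.06, and for the regulators between -0.07 and 0.13. Even so, 5 of 11 regulators were higher and 0 lower in cluster 3 of AF76, against 19.7% and 20.3% of all genes. In cluster 3 of AF75, 2 regulators were higher and 1 lower, against 18.3% and 22.7%. Ribosome biogenesis genes had medians further from 0, with values of 0.24 and 0.18 in cluster 3 and of 0.11 and 0.18 in cluster 4 against cluster 0, in AF75 and AF76. In cluster 3 of AF75, 6 of 19 were higher and 0 lower, where 18.3% of all genes were higher and 22.7% lower. In cluster 3 of AF76 these were 5 and 2, against 19.7% and 20.3%, while the ribosomal protein genes there had a median of 0.01. In cluster 4 they were 5 and 1 in AF75, against 16.9% and 17%, and 6 and 0 in AF76, against 16.9% each way. In cluster 1 of AF75 the biogenesis genes had a median of 0.18, with 4 of 19 higher and 0 lower, against 13.4% and 26.4% of all genes. In AF76 the median was -0.03 and none passed the fold, against 8.88% and 9.03%. Between the follicles in cluster 1 the median was -0.24, with 5 of 18 lower in AF76 against 15.4% of all genes.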

How the data were processed

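Reads were aligned to Sscrofa11.1 and counted by the authors with CellRanger 6.0.2, and the deposited values are the whole UMI count per gene and called barcode, neither filtered further nor normalized. The libraries were made with 3′ kits. Between 4148 and 32340 UMIs were counted per cell used in AF75 and between 3487 and 32958 in AF76.

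Cells were integrated by anchors and clustered with Seurat 5.3.0 (R 4.3.3) on 40 components, at the lowest resolution on a grid with steps of 0.02 that gave 6 clusters. Doublets were kept in the values reported and removed in an alternative. Summed UMIs of each cluster and follicle were taken with Python 3.11.15, numpy 2.4.6, scipy 1.17.1 and pandas 2.3.3. Shares were given Clopper-Pearson intervals, and CPM ratios exact conditional intervals, at 95%. A gene was compared with at least 200 UMIs in either group, a ratio over 25% above 1, or under its inverse, was counted, and a member departed at 0.5 or more from the member median on the log2 scale. Sums, ratios and counts were tested on simulated data. The genes named were the 5 most abundant members, the members outside the standard set, the departing members, those of lowest likeness and the 3 with the largest ratios each way in each list. Some genes of the lists are counted but not reported here by name. Start sites were read from RefSeq on the same assembly. No value of the paper or its tables was used. The members and lists were chosen with earlier results of these data known. Other filters, clusterings, denominators and thresholds were tried as alternatives.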

Additional observations from a re-analysis of the deposited data

Results flagged for a closer look

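The cell-cycle cluster 3 held a larger share of ribosomal protein UMIs than cluster 0 in AF75, by 0.0792 percentage points, and a smaller one in AF76, where the difference was -0.143 points. The sign thus differed between the follicles, and the difference between them was not tested, with 1 library each and 121 cells of cluster 3 in AF76. The mean over cells put AF75 at -0.00282 points and cells thinned to 5000 UMIs at -0.0212, and then both follicles had the lower share in cluster 3. In AF75 the cells of cluster 3 with 20000 or more UMIs had 8.01% and those with 9000 to 12000 had 7.11%.

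The barcodes outside the limits on genes and mitochondrial UMIs, which entered no comparison, held UMIs of the family as well. In AF75 these 4927 barcodes gave 6.73% of their UMIs, below the 7.37% of the cells used, and in AF76 the 7705 barcodes gave 8.93%, above the 8.04% of the cells used. In barcodes of at most 500 genes the median was 5.41% in AF75, at a median mitochondrial share of 28.8%, and 9.09% in AF76, at 1.91%. In AF76, barcodes of 500 to 1000 genes had a median of 9.75%, and the part of such barcodes in the level of cluster 2, whose cells were also shallow, was not tested.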

How the results depend on the processing

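In every alternative tried, cluster 2 kept a larger share than cluster 0 of AF76, by 2.67 to 3.88 percentage points, and cluster 0 kept a larger share in AF76 than in AF75, by 0.461 to 0.745 points. The sign of cluster 1 against cluster 0 turned in 2 alternatives, one in each follicle. Where a clustering was repeated, each new group was given the number of the cluster that most of those of its cells came from which had been used before, however few they were. Causes of the changes were not tested. Another seed moved none of the values of clusters 0, 1 and 2 beyond their counting intervals. Keeping the members among the variable genes changed nothing, because 0 of them were among the 2000. Depth limits RPL3L, RPL10L and cluster 5. No paired analysis was possible because no result comes from a test. Each follicle gave 1 library, and differences between clusters are given within each follicle.

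Removing the barcodes called doublets gave cluster 0 shares of 7.48% in AF75 and 8.01% in AF76, with cluster 1 at -0.317 and -0.658 points from cluster 0 and a gap between the follicles of 0.525 points. With barcodes of 500 to 6000 genes cluster 0 of AF75 had 7.38% and cluster 2 had 10.6%, cluster 1 was at 0.0233 points from cluster 0 in AF75, which is a change of sign, and at -1.21 points in AF76, the group taken as cluster 1 held 27.4% of its cells, cluster 2 stood 2.67 points above cluster 0, the follicles differed by 0.593 points and 4 members departed. The same limits gave the other changes of sign: the group matched to cluster 4 stood 3.61 points above cluster 0 in AF75 and 6.07 points in AF76, and in cluster 1 the difference of AF76 from AF75 was -0.637 points. A mitochondrial limit of 10% gave 7.42% and 7.97% in cluster 0, with cluster 1 at -0.285 and -0.497 points and the follicles 0.547 points apart. Without integration cluster 0 had 7.43% and 7.89%, cluster 1 was at -0.285 points in AF75 and, with the sign changed, at 0.583 points in AF76, cluster 2 stood 3.19 points above cluster 0 and the follicles differed by 0.461 points. With 20 components cluster 0 had 7.43% and 7.95% and cluster 2 had 10.8%, the differences were -0.273 and -0.119 points for cluster 1 and 2.88 points for cluster 2, and the follicles were 0.521 points apart.

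Taking the mean over cells gave cluster 0 a share of 7.42% and 7.97% and cluster 2 one of 11.04%, with cluster 1 at -0.373 points in AF75, cluster 2 at 3.07 points and 0.547 points between the follicles. It also turned cluster 3 of AF75 to -0.00282 points from cluster 0. Cells thinned to 5000 UMIs gave 7.43% in cluster 0 of AF75 and 11.14% in cluster 2, with differences of -0.366 points for cluster 1 of AF75, 3.16 points for cluster 2 and 0.551 points between the follicles, and cluster 3 of AF75 turned to -0.0212 points. Leaving mitochondrial genes out of the denominator raised the shares to 7.67%, 8.23% and 11.4%, with cluster 1 at -0.377 and -0.549 points, cluster 2 at 3.18 points and the follicles 0.562 points apart. The standard set alone had 7.21% and 7.72% in cluster 0 and 10.76% in cluster 2, with differences of -0.293, 3.04 and 0.508 points for cluster 1 of AF75, cluster 2 and the follicles. Without the member with most UMIs these shares were 7.07%, 7.55% and 10.7%, cluster 1 was at -0.234 and -0.448 points, cluster 2 at 3.18 points and the follicles at 0.482 points.

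A ratio of 1.5 in place of the 25% limit left 14 members higher and 1 lower in cluster 2, and a ratio of 2 left 2 and 0. The shares of all genes at these ratios are not given, so the counts do not show whether members differed from other genes. With a departure limit of 0.3, 13 members departed, and for this count too the share of all genes is not given. The last 3 alternatives were chosen after seeing the data. Adding the 13 genes named from the reference table gave 9.70%, 10.45% and 14.3%, with cluster 1 at -0.386 and -0.655 points, cluster 2 at 3.88 points and the follicles at 0.745 points. In cells with 5000 to 9000 UMIs cluster 0 had 7.23% and 7.93%, with cluster 1 at -0.550 and -0.18 points, cluster 2 at 3.19 points and the follicles at 0.699 points. Without the 31 cells of its finer group cluster 2 had 10.85% and stood 2.87 points above cluster 0. Of the main values under these alternatives, 57 were counted as unchanged, 79 as moved, and 2, given above, changed sign. Of the other values, 153 moved by less than their counting interval, 107 by more, and 5, given above, changed sign.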
